A study of Mus musculus with 4 samples.

Results

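The genes of 9 transcription factors that direct epidermal differentiation (Trp63, Klf4, Klf5, Grhl1, Grhl3, Ovol1, Zfp750, Cebpa and Maf) were followed in primary mouse keratinocytes labelled as deficient in the glucose transporter Glut1. The 9 genes were chosen by name, with earlier results of these data known. They were taken out of 30142 genes that the rows of the array table name singly, and each had 1 such row. Their RNA levels come from 4 arrays of the Affymetrix MTA-1_0 type with 1 colour, 2 for Glut1-deficient and 2 for wild-type (WT) keratinocytes. Both groups came from 1-week-old C57BL/6J mice, 4 of each genotype, and the deficiency was restricted to keratinocytes; the sources used here name neither the Cre line nor the deleted part of the gene. All cells grew in serum-free keratinocyte medium with 0.05 mM CaCl2, hydrocortisone, EGF, bovine pituitary extract and insulin. They were reseeded after 3 days at 2000000 cells and harvested the next day. RNA on an array is a random pool of 2 plates from animals of that genotype. The p-values therefore measure the spread between such pools, part of which may be technical.

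The epidermis renews from basal keratinocytes, which leave the basement membrane, stop dividing and pass through spinous and granular stages before they cornify. The p63 protein, encoded by Trp63, maintains the basal program and licenses differentiation. Factors of the KLF, grainyhead-like (GRHL), OVOL, ZNF750, C/EBP and MAF types act in the later stages, and a rise of calcium in the medium is the usual trigger of these stages in culture.

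The values are log2 signals, and all differences are Glut1-deficient minus WT on the log2 scale with the standard error (SE) of limma. A gene was called changed where its Benjamini-Hochberg adjusted p over 30604 rows was under 0.05. Slc2a1, which encodes Glut1, had signals of 12.09 and 12.01 on the Glut1-deficient arrays and 13.26 and 13.40 on the WT arrays (difference -1.28, SE 0.10, adjusted p = 0.00754). Its RNA was therefore lower on the Glut1-deficient arrays but still far above background. Over 14 alternative settings its adjusted p ran between 0.00517 and 0.209, and it missed the threshold when Glut1-deficient replicate 1 was left out (0.0508). All 11 measured keratinocyte markers lay above the background floor everywhere, among them Krt5 (18.30 and 17.98 on Glut1-deficient, 18.61 and 18.69 on WT arrays) and Krt14 (17.16 and 16.97 on Glut1-deficient, 17.40 and 17.60 on WT arrays). The floor is the 95th percentile of 23 background control rows and lay between 4.36 and 4.87. Of the 11 keratinocyte markers, 7 were lower and 4 higher on both Glut1-deficient arrays than on both WT arrays (list median -0.33). Over all rows, 25.8% were lower and 23.8% higher in this way. Epcam was the 1 marker called in limma (difference -0.84, adjusted p = 0.0184), a call kept in 7 of 14 alternative settings. Between arrays the correlation across rows was 0.997 within the Glut1-deficient pair, 0.998 within the WT pair and 0.989 to 0.992 between genotypes. All 4 arrays enter every result, and their number limits the precision.

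Of the 9 factor genes, 4 rose in Glut1-deficient keratinocytes (Grhl1, Klf4, Cebpa and Klf5), 1 fell (Maf) and 4 did not pass the test (Grhl3, Ovol1, Zfp750 and Trp63). Over all rows 7.22% passed, 4.11% higher and 3.11% lower. All 9 genes lay above the floor on all 4 arrays, and among the 14194 such rows 14.4% passed, 8.26% higher and 6.14% lower. The median difference of the 9 genes was 0.54, against -0.011 over all rows and 0.003 over the rows above the floor. Since the 9 genes were chosen with earlier results of these data known, these shares and medians are no test of the group. The groups did not overlap for 8 of the 9 genes, 7 higher and 1 lower, as for 49.7% of all rows (23.8% higher and 25.8% lower). With a 2-fold limit added, 1 of the 9 genes (Maf) was called, as were 2.6% of all rows. These calls rest on few arrays: the count of 5 called genes became 0 without Glut1-deficient replicate 1, 1 without Glut1-deficient replicate 2, 0 without WT replicate 1 and 1 without WT replicate 2. It was also 0 when all 72688 rows of the table were tested, with 7 of the 9 genes and 13.4% of those rows at an unadjusted p under 0.05.

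**Figure D1:**
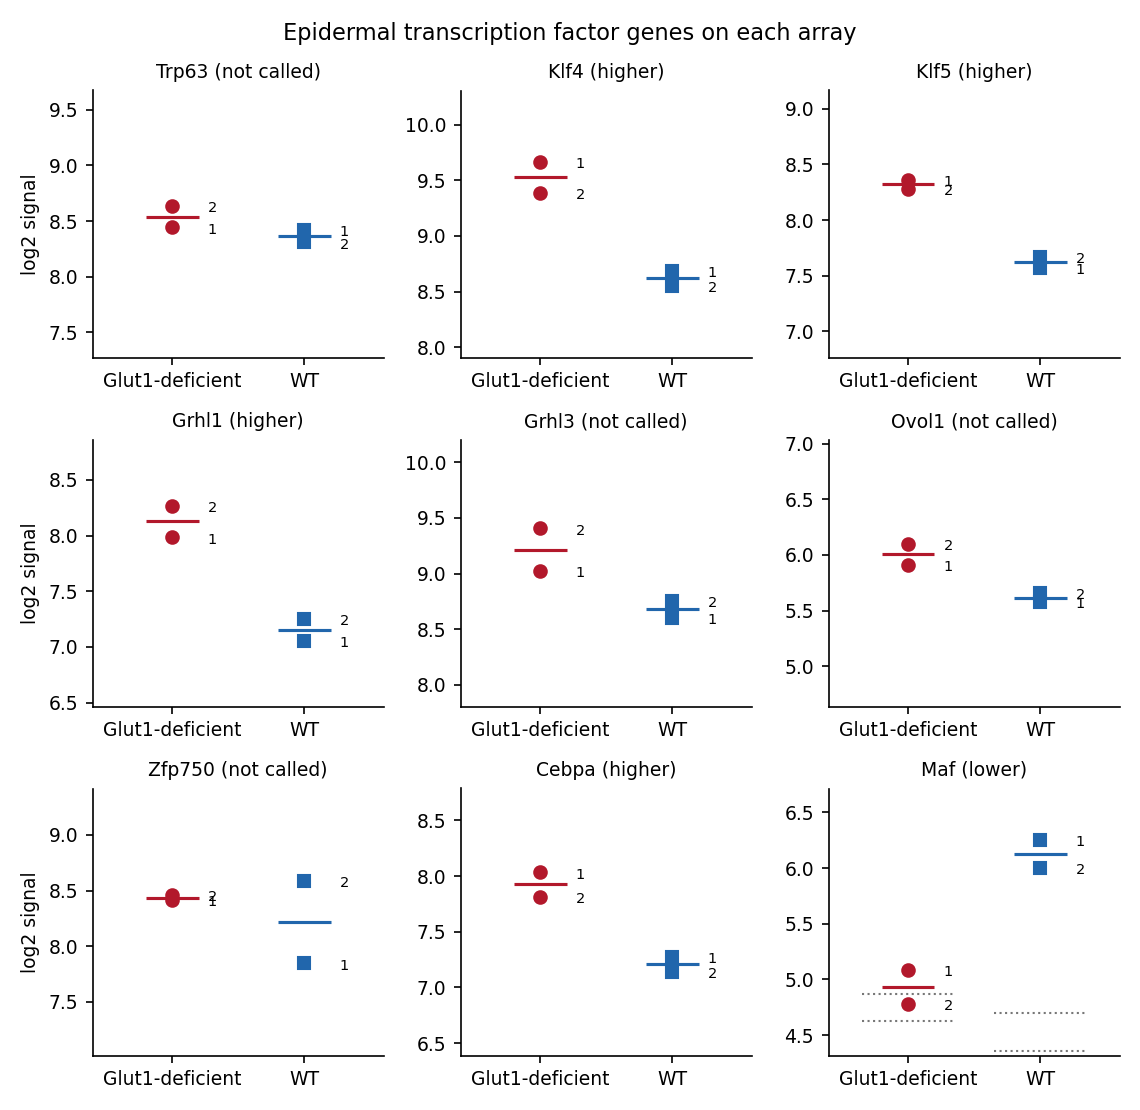
Log2 signal of each factor gene on each array, with Glut1-deficient arrays as circles on the left and WT arrays as squares on the right of each panel, the replicate number beside each point and a bar at the mean of 2 arrays. Every panel spans the same number of log2 units, so gaps can be compared between panels; only Zfp750 has overlapping groups, and for Maf dotted lines mark the background floor of each array.

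Trp63 encodes p63, which is needed for the basal layer of stratified epithelia to form. Its signal was 8.44 and 8.64 on the Glut1-deficient arrays, against 8.42 and 8.31 on the WT arrays. The lower Glut1-deficient array stood only just above the higher WT array. The difference was 0.18 (SE 0.11, 95% interval -0.11 to 0.47) and did not pass (adjusted p = 0.476). The row summarises probes over the gene, so the long and the amino-terminally truncated p63 forms cannot be told apart.

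Klf4 encodes a zinc finger factor that mouse epidermis needs to form its permeability barrier. Its signal was 9.67 and 9.39 on the Glut1-deficient arrays, against 8.69 and 8.55 on the WT arrays, so both Glut1-deficient arrays lay clearly above both WT arrays. The gene rose by 0.91 (SE 0.13, adjusted p = 0.0244), or 1.88-fold. The call held without Glut1-deficient replicate 2 (adjusted p = 0.0439) and was lost without Glut1-deficient replicate 1 (0.0890), WT replicate 1 (0.0838) or WT replicate 2 (0.101), in a range over 14 alternatives from 0.0153 to 0.279. Klf5, a related factor known for its expression in dividing epithelial cells, had signals of 8.36 and 8.28 on the Glut1-deficient arrays, against 7.57 and 7.67 on the WT arrays. Replicates lay close together in both groups. Klf5 rose by 0.70 (SE 0.10, adjusted p = 0.0232), or 1.63-fold. Its call was lost without Glut1-deficient replicate 1 (0.0985), Glut1-deficient replicate 2 (0.0618), WT replicate 1 (0.125) or WT replicate 2 (0.0867), while the difference stayed between 0.65 and 0.75 (adjusted p from 0.0152 to 0.228 over the alternatives).

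Grhl1 encodes a grainyhead-like factor that supports desmosomal adhesion and hair anchoring in mouse skin. Its signal was 7.98 and 8.27 on the Glut1-deficient arrays, against 7.06 and 7.25 on the WT arrays. Every Glut1-deficient value was above every WT value. Grhl1 rose by 0.97 (SE 0.14, adjusted p = 0.0239), or 1.96-fold, which was the largest rise among the 9 genes. Its call was lost without Glut1-deficient replicate 1 (0.0650), Glut1-deficient replicate 2 (0.0655), WT replicate 1 (0.103) or WT replicate 2 (0.0659), with differences from 0.83 to 1.12 (adjusted p from 0.0151 to 0.284 over the alternatives). Grhl3, its relative required for barrier formation and wound closure in the mouse, had signals of 9.02 and 9.41 on the Glut1-deficient arrays, against 8.60 and 8.76 on the WT arrays. The groups did not overlap, but the Glut1-deficient arrays differed from each other by more than the WT arrays did. The difference of 0.54 (SE 0.16, 95% interval 0.14 to 0.94) did not pass (adjusted p = 0.124).

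The upstream stretches of Klf4 and Grhl1 are shown as examples. Both genes were called higher and have a window in the RefSeq promoter table (GRCm38.p6). That table held windows for 4 of the 9 genes (Klf4, Grhl1, Grhl3 and Cebpa). Cebpa was also called higher, but its window, which held no match to any of the 8 motifs, is not shown. Each stretch shown is given 5′ to 3′ on the gene's strand and ends just before the first annotated start of the gene. The Klf4 stretch is chr4:55532476-55532725 on the minus strand, and the Grhl1 stretch is chr12:24572037-24572231 on the plus strand. Capitals mark matches to the KLF-type GC box CCCCGCCC, a sequence that Sp factors bind as well, and in Grhl1 also to the ZNF750-type motif CCNNAGGC, each on either strand.
Klf4: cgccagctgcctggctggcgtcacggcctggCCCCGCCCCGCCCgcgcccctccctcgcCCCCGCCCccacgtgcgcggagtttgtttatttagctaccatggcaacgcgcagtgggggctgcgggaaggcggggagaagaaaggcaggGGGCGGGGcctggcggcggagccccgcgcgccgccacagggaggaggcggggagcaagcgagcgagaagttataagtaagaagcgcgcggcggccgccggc
Grhl1: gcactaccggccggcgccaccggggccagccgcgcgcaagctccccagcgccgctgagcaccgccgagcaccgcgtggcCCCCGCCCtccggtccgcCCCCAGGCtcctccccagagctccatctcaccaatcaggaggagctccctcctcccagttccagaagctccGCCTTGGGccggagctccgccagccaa
The Klf4 stretch held 4 GC boxes, the first 2 of which overlap in the shared run of capitals, and the Grhl1 stretch held 1 GC box and 2 ZNF750-type matches. Over all 32851 windows of 300 bases, 17.6% held a GC box and 24.1% a ZNF750-type match. The other motifs searched were AACCNGTT (GRHL, in 2.09% of windows), CCACACCC (KLF, 3.56%), the spaced pair of half-sites of p63 (0.712%), TTGCNNAA (C/EBP, 10.8%), CCGTTA (OVOL, 2.76%) and TGCTGAC (MAF, 4.67%). None of these motifs occurred in the 5 windows of the 4 genes, and the window of Cebpa and that of Grhl3 held no match to any of the 8 motifs. A match is a description of letters and not a binding site.

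Ovol1 encodes a zinc finger repressor that restrains the division of differentiating keratinocytes in the mouse. Its signal was 5.91 and 6.10 on the Glut1-deficient arrays, against 5.58 and 5.66 on the WT arrays. The groups were separate but close. The difference of 0.39 (SE 0.11, 95% interval 0.11 to 0.67) did not pass (adjusted p = 0.114). Zfp750 is the mouse form of human ZNF750, which acts downstream of p63 and induces KLF4 in human keratinocytes. Its signal was 8.41 and 8.46 on the Glut1-deficient arrays, against 7.85 and 8.59 on the WT arrays. Both Glut1-deficient values lay between the WT values, and the WT pair had the widest spread of the 9 genes (SD 0.53, n = 2). The difference of 0.22 (SE 0.25, 95% interval -0.41 to 0.85, adjusted p = 0.725) was -0.15 without WT replicate 1 and 0.59 without WT replicate 2, so neither its size nor its sign was settled.

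Cebpa encodes C/EBPα, a leucine zipper factor linked to cell cycle exit and expressed in suprabasal keratinocytes. Its signal was 8.03 and 7.82 on the Glut1-deficient arrays, against 7.27 and 7.14 on the WT arrays. The groups were well apart. Cebpa rose by 0.72 (SE 0.12, adjusted p = 0.0335), or 1.65-fold. Its call was lost without Glut1-deficient replicate 1 (0.118), Glut1-deficient replicate 2 (0.0563), WT replicate 1 (0.109) or WT replicate 2 (0.145), with differences from 0.61 to 0.83 (adjusted p from 0.0211 to 0.284 over the alternatives). C/EBPα also marks adipocytes: of 6 adipocyte markers 5, including Plin1, lay at or below the floor on all 4 arrays, and the summed signal of the list was 6.57 and 6.61 on the Glut1-deficient arrays, against 6.43 and 6.47 on the WT arrays. Fabp4 was the marker called higher in limma (difference 0.61, adjusted p = 0.0487), a call lost without any 1 of the 4 arrays (differences 0.51 to 0.72). Over 13 alternatives its adjusted p ran from 0.0388 to 0.308. Fabp4 lay above the floor on 1 array only, Glut1-deficient replicate 2 (4.89, floor 4.63). On Glut1-deficient replicate 1 it was below the floor (4.68, floor 4.87), so the size of its rise was not settled. The part of adipocytes in the difference of Cebpa was not tested.

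Maf encodes c-MAF, a leucine zipper factor that promotes the differentiation of human keratinocytes. Its signal was 5.09 and 4.78 on the Glut1-deficient arrays, against 6.25 and 6.00 on the WT arrays. Maf fell by 1.19 (SE 0.15, adjusted p = 0.0190), or 2.29-fold, and was the only one of the 9 genes called lower. Both Glut1-deficient values were close to the floor of their arrays, 4.87 and 4.63. The call held without WT replicate 2 (0.0448) and was lost without Glut1-deficient replicate 1 (0.0600), Glut1-deficient replicate 2 (0.0570) or WT replicate 1 (0.0774), with differences from -1.35 to -1.04 (adjusted p from 0.00867 to 0.278 over the alternatives). Macrophages also express Maf: 6 of 7 macrophage and dendritic cell markers, including Csf1r, lay at or below the floor on all 4 arrays. The exception was the lysosomal gene Cd68, with 9.30 and 10.20 on the Glut1-deficient arrays and 7.76 and 7.85 on the WT arrays. The part of macrophages in the difference of Maf was not tested. Cd68 rose by 1.95 (adjusted p = 0.0268), a call lost without WT replicate 1 (0.0913) or WT replicate 2 (0.0756; 0.00861 to 0.327 over the alternatives).

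**Figure D2:**
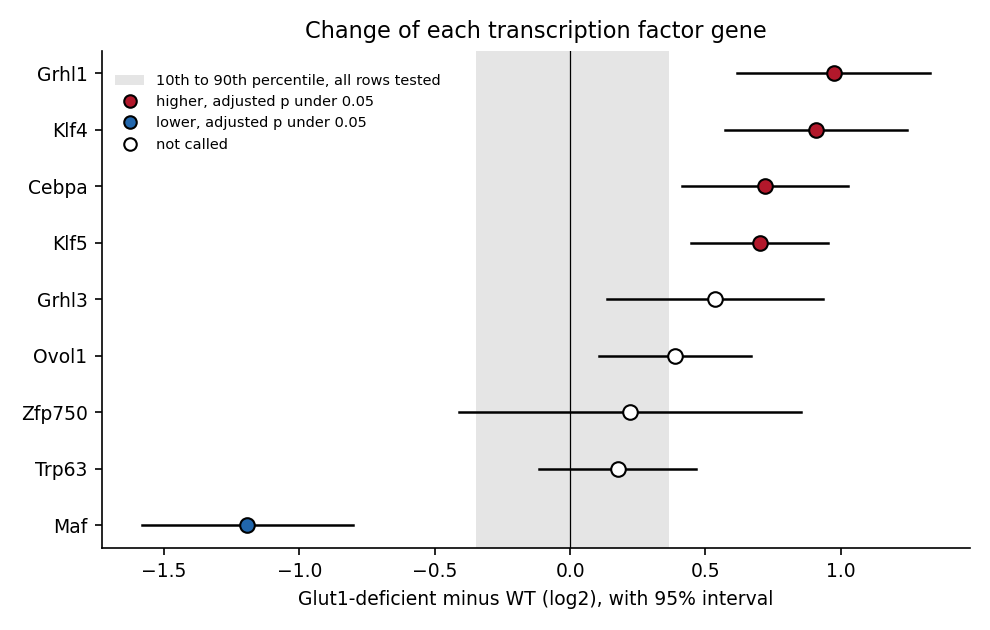
Glut1-deficient minus WT difference of each factor gene on the log2 scale, ordered by size, with its 95% interval from limma (2 arrays per group) and a grey band from the 10th to the 90th percentile of all rows, -0.35 to 0.36. Filled points passed an adjusted p of 0.05: Grhl1, Klf4, Cebpa and Klf5 sit to the right of the band and Maf, at -1.19, to its left.

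Within the Glut1-deficient pair the factor genes did not vary as a block. Klf4, Klf5, Cebpa and Maf had their higher value on replicate 1, and Trp63, Grhl1, Grhl3, Ovol1 and Zfp750 on replicate 2. Leaving out Glut1-deficient replicate 1 accordingly gave larger differences for Grhl1 (1.12) and Grhl3 (0.73) and smaller ones for Klf4 (0.77) and Cebpa (0.61). Melanocyte markers were also highest on replicate 1: their summed signal was 12.39 and 11.16 on the Glut1-deficient arrays, against 10.58 and 10.08 on the WT arrays, with 1 of 8 called higher (Pmel, by 1.04, lost in each fit with 3 arrays but that without Glut1-deficient replicate 2) and the defining factor gene Sox10 above the floor on 2 of 4 arrays. That order over the arrays is the order of Klf4 and of Cebpa, and the part of melanocytes in those differences was not tested. Of the 8 melanocyte markers, 7 were higher on both Glut1-deficient arrays than on both WT arrays and 0 were lower (list median 0.76). The shares of all rows were 23.8% and 25.8%, and 4.11% of all rows were called higher. Tyrp1 and Dct, the 2 brightest markers, differed by 1.49 and 1.84 and did not pass in limma (adjusted p = 0.136 and 0.067). In such bulk samples, fewer cells of a type and less RNA per cell cannot be told apart. Of 9 fibroblast markers, 8 were higher on both Glut1-deficient arrays than on both WT arrays and 1, Fbln1, was lower (list median 0.37). Over all rows, 23.8% were higher and 25.8% lower in this way. Of the 9 markers, 3 lay above the floor on all 4 arrays and 2 lay at or below it on all 4. Dcn, the decorin gene, was called higher, at least 2.14-fold against the floor (adjusted p = 0.0250), a call lost without WT replicate 1 (0.0697) or WT replicate 2 (0.0834; 0.0153 to 0.317 over the alternatives). Fbln1, a fibulin gene, fell by 0.81 (adjusted p = 0.0293), a call lost in each fit with 3 arrays but that without Glut1-deficient replicate 2. The summed signal of the list was 8.46 and 8.83 on the Glut1-deficient arrays, against 8.60 and 8.62 on the WT arrays, and the part of fibroblasts in the differences of the 9 genes was not tested.

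**Figure D3:**
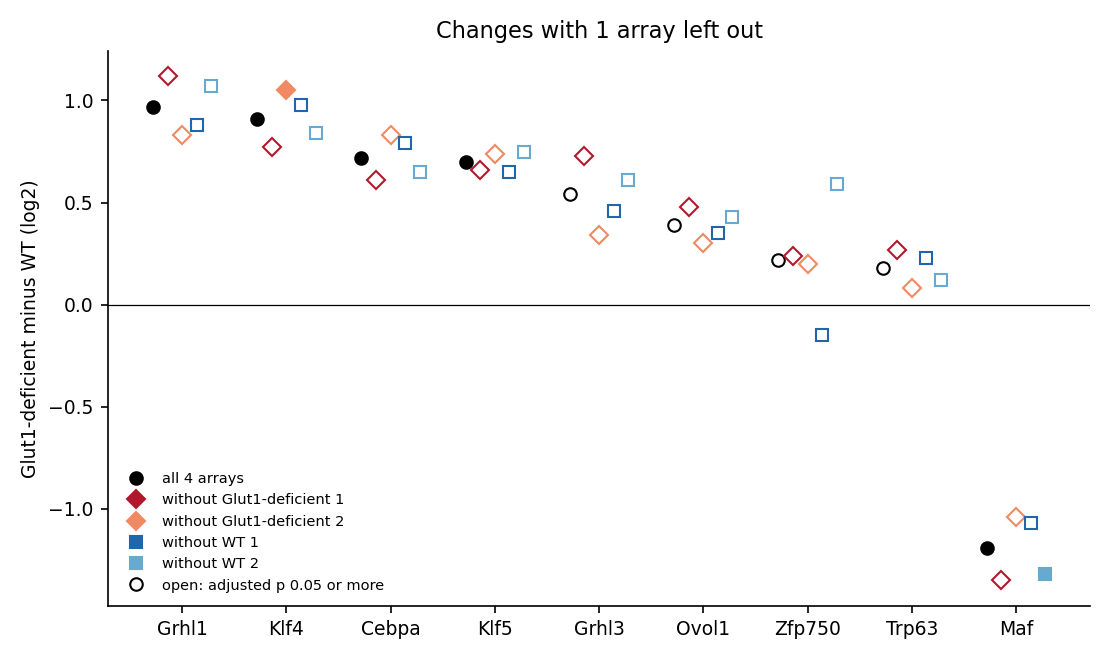
Glut1-deficient minus WT difference (log2) of each factor gene with all 4 arrays and with each array left out in turn, filled where the adjusted p was under 0.05 and open otherwise. Signs held for every gene except Zfp750, which went to -0.15 without WT replicate 1, and only Klf4 and Maf passed in any fit with 3 arrays.

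Of 15 other KLF genes 2 rose, none fell and 13 did not pass (median 0.08), beside 7.22% of all rows called and 14.4% of those above the floor. Klf9, a glucocorticoid-responsive member, rose by 2.34 (SE 0.15, adjusted p = 0.00507), with 10.65 and 10.27 on the Glut1-deficient arrays and 8.11 and 8.12 on the WT arrays. Klf3 rose by 0.58 (adjusted p = 0.0293), a call lost without any 1 array (0.0761 to 0.152; over the alternatives, 0.0194 to 0.209), whereas that of Klf9 held in each such fit (0.0158 to 0.0256). Of 5 other C/EBP genes 1 rose, Ddit3, the stress-induced member also called CHOP, by 4.77 (SE 0.18), and 4 did not pass (median 0.47). The row of Ddit3 is labelled as unmapped on the array. Of 5 other MAF genes none passed. At an unadjusted p under 0.05, which 22.0% of all rows reached, there were 3, the small MAF genes Mafg, Mafk and Maff, with differences of 0.51, 0.52 and 0.39. Of the 4 other members measured in the p53, GRHL and OVOL families none passed in limma, and 0 had an unadjusted p under 0.05; Grhl2, the other grainyhead-like gene of the epidermis, had 10.71 and 10.55 on the Glut1-deficient arrays and 10.64 and 10.76 on the WT arrays (difference -0.07), and Ovol2 differed by -0.10. Within the GRHL family, the row of Grhl1 was therefore the one that passed. Differences between family members were not tested.

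Among 48 measured regulators of epidermal development outside the 9 genes, 4 rose, 1 fell and 43 did not pass (median 0.01), a share near that of all rows (7.22%, or 14.4% of those above the floor). Rora, a nuclear receptor gene, rose by 1.47 (SE 0.18), Prdm1, which encodes the repressor Blimp1 of granular keratinocytes, by 0.87 (SE 0.14), Tfap2a, which encodes the AP-2α regulator of keratin genes, by 0.73 (SE 0.11) and the forkhead gene Foxq1 by 0.52 (SE 0.09). Ehf, an epithelial ETS factor gene, fell by 0.80 (SE 0.15). The row of Rora is labelled as unmapped on the array. Prdm1 averaged 8.72 ± 0.09 on the Glut1-deficient arrays and 7.85 ± 0.22 on the WT arrays (SD, n = 2 each). Tfap2a had 11.17 and 10.98 on the Glut1-deficient arrays, against 10.33 and 10.36 on the WT arrays. Adjusted p-values ran from 0.0171 for Rora to 0.0439 for Ehf. Prdm1, Foxq1 and Ehf were lost without any 1 array (0.0508 to 0.186), Tfap2a in each such fit but that without Glut1-deficient replicate 2 (0.0480, otherwise up to 0.122), and Rora without Glut1-deficient replicate 1 (0.0763) or WT replicate 1 (0.0606). Over all alternatives the adjusted p of these 5 genes reached from 0.0108 for Rora to 0.333 for Ehf.

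The factors are known to control structural genes of the basal and upper layers, and genes of both kinds were called in both directions. In a list of basal genes linked to p63, 7 of 29 measured members fell, 2 rose and 20 did not pass (median -0.35). Over all rows, 3.11% were called lower and 4.11% higher, and among rows above the floor 6.14% and 8.26%. Fat2, a giant cadherin of basal keratinocytes, fell by 2.38 (SE 0.17), the Notch ligand gene Jag1 by 1.38 (SE 0.12), the integrin gene Itga3 by 0.87 (SE 0.10) and the hemidesmosome collagen gene Col17a1 by 0.86 (SE 0.11). The members that rose were Fgfr2, a receptor for keratinocyte growth factors, by 1.25 (SE 0.19), and Cldn1, the tight junction gene, by 0.82 (SE 0.10). Jag1 had 14.58 and 14.64 on the Glut1-deficient arrays and 16.10 and 15.88 on the WT arrays. Only Fat2 of these held without each array in turn (adjusted p 0.00964 to 0.0465). Jag1 was lost without Glut1-deficient replicate 1 (0.0562), Itga3 in each such fit but that without Glut1-deficient replicate 2 (0.0488, otherwise 0.0607 to 0.0735), Fgfr2 in each but that without WT replicate 2 (0.0394, otherwise 0.0573 to 0.115), and Col17a1 (0.0567 to 0.0883) and Cldn1 (0.0553 to 0.0954) in all 4. Over the alternatives the highest adjusted p of these 6 genes was 0.311, and the count of 9 called members fell to between 1 and 4 with 1 array left out. The row of Trp63 itself did not pass (difference 0.18).

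In a list of spinous and granular genes, 13 of 52 rose, 3 fell and 36 did not pass (median 0.04). Over all rows, 4.11% were called higher and 3.11% lower, and among rows above the floor 8.26% and 6.14%. Of the 52 genes, 16, including the loricrin gene Lor, lay at or below the floor on all 4 arrays. Abca12, the lamellar granule lipid transporter gene, rose by 4.80 (SE 0.10), Cdsn, the corneodesmosin gene, by 3.25 (SE 0.14), Spink5, the protease inhibitor gene of the granular layer, by 2.70 (SE 0.22) and Aloxe3, a barrier lipoxygenase gene, by 1.74 (SE 0.10). Elovl4, a fatty acid elongase gene of barrier ceramides, rose by 1.21 (SE 0.15). Tgm1, the cross-linking transglutaminase gene, fell by 1.52 (SE 0.19), with 6.46 and 6.31 on the Glut1-deficient arrays and 7.64 and 8.16 on the WT arrays. Ivl, the involucrin gene, fell by 1.36 (SE 0.20), with 7.15 and 7.70 on the Glut1-deficient arrays and 8.89 and 8.69 on the WT arrays. Padi3, a deiminase gene, was at or below the floor on both Glut1-deficient arrays and at least 2.65-fold lower there (adjusted p = 0.00523). Abca12, Cdsn, Aloxe3, Spink5 and Padi3 held without each array in turn. Tgm1 was lost without Glut1-deficient replicate 1 (0.0890) or 2 (0.0717), Elovl4 without Glut1-deficient replicate 1 (0.0524) or WT replicate 1 (0.0750), and Ivl without Glut1-deficient replicate 1 (0.0671), WT replicate 1 (0.0954) or WT replicate 2 (0.0675), in ranges over all alternatives of 0.0116 to 0.286, 0.00867 to 0.277 and 0.0155 to 0.310. The count of 16 called members was 7 without Glut1-deficient replicate 1, 9 without Glut1-deficient replicate 2 and 9 without WT replicate 1.

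**Figure D4:**
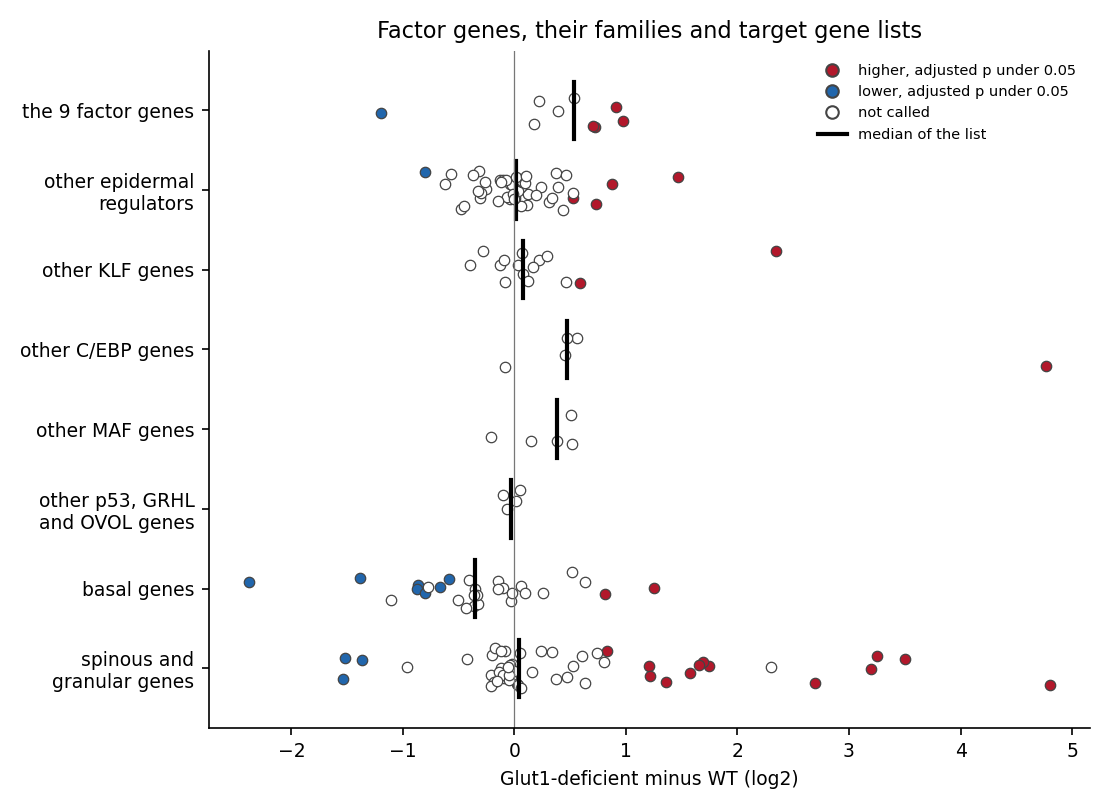
Glut1-deficient minus WT difference (log2) of each measured gene, 1 point per gene, filled where called, with a bar at the median of each list. The lists are the 9 factor genes, other genes of their families, other epidermal regulators, basal genes linked to p63, and spinous and granular genes. The basal genes have their median at -0.35, the spinous and granular genes spread from -1.54 (Padi3, drawn at its measured difference) to 4.80 (Abca12), and the medians of the other regulators (0.01) and other KLF genes (0.08) lie near 0.

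Likeness of pattern was measured as the Euclidean distance between log2 values over the 4 arrays, each gene centred on its own mean, among 139 other listed genes above the floor on all arrays. Klf4 lay nearest to the melanocyte gene Pmel (0.19) and to Cebpa (0.19), Cebpa to Tfap2a (0.12) and Klf4, and Klf5 to Tfap2a (0.10) and Cldn1 (0.12). Grhl1 lay nearest to Elovl4 (0.24) and Cldn1 (0.29), Grhl3 to Plin2 (0.15) and Ovol1 (0.21), and Ovol1 to Pdgfrb (0.07) and Klf11 (0.16). The genes nearest to Maf were Jag1 (0.32) and the adhesion gene Epcam (0.40), both of which fell. Trp63 lay nearest to Lhx2 (0.05) and Klf15 (0.11), and Zfp750 to Calm4 (0.12) and Ly6d (0.36). Over 4 arrays in 2 groups such a distance depends on the size and sign of the same difference.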

How the data were processed

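The authors deposited log2 signals, 1 for each transcript cluster. The submitters' processing notes name RMA in Expression Console of Affymetrix, and the labels call the values SST-RMA gene signals. The sources used here name no versions, no annotation release and no set of arrays normalized together. RMA makes the distributions of arrays alike, which would take out a shift common to most genes, and the SST step changes the scale of the signal and may change folds.

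Of 72688 rows, 6732 were controls, 30604 had 1 gene symbol, 2146 several and 33206 none. Entrez identifiers of 22818 rows with 1 symbol matched RefSeq (GRCm38.p6), which updated 827 symbols. Where a gene had several rows the brightest stood for it. Rows with 1 symbol were compared with limma 3.58.1 (lmFit, eBayes) in R 4.3.3, two-sided, without a replicate block, and Benjamini-Hochberg adjusted p-values under 0.05 were called. The procedure was tested on simulated data. The 9 genes, the lists and the tests were chosen with earlier results of these data known. The genes set to be named were Slc2a1, the 9 and the 4 called genes with the smallest p of each list (otherwise 2). The 2 brightest of each marker list and the 2 nearest in pattern came with them, but not every such marker gene is given here. Ehf, Fgfr2, Tgm1, Ivl, Lor, Krt5, Krt14, Maff, Spink5 and Dcn were chosen after their values were seen. Of the other marker lists, 0 of 6 T cell, 1 of 7 endothelial (Kdr), 0 of 9 hair follicle, 0 of 6 sebocyte and 0 of 3 Schwann cell genes were called. Over all rows 7.22% were called. Kdr rose by 3.60 in limma (adjusted p = 0.0051), with 10.14 and 9.51 on the Glut1-deficient arrays and 6.11 and 6.34 on the WT arrays. Pecam1 differed by -0.32 and did not pass, and 5 of the 7 endothelial markers lay at or below the floor on all 4 arrays. The part of endothelial cells was not tested. The labels number replicates 1 and 2 in both groups, but plates were combined at random. The alternatives covered normalization, rows tested, moderation, blocks, each array left out and a 2-fold limit.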

Additional observations from a re-analysis of the deposited data

How the results depend on the processing

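Of the 9 factor genes, none reversed its sign under the 14 alternatives except Zfp750 (-0.15 without WT replicate 1, up to 0.59 without WT replicate 2). The planned comparison with other rows of a gene gave no value, since each of the 9 has 1 row. Quantile normalization, centring on medians, 1 row per gene, leaving out dim rows, and trended robust moderation kept all 5 calls. Quantile normalization shifted the median of all rows by 0.024 and centring by -0.009. Testing all 72688 rows left 74 rows and 0 of the 9 genes called, with adjusted p = 0.114 for Klf4 (0.91), 0.113 for Klf5 (0.70) and Grhl1 (0.97), 0.141 for Cebpa (0.72), 0.0995 for Maf (-1.19) and 0.0648 for Slc2a1 (-1.28). It called 0 of the other regulators, KLF, basal and keratinocyte genes and 3 spinous and granular genes. Without moderation, on 2 residual degrees of freedom, 0 rows and 0 genes of any list were called (4698 rows and 5 of the 9 genes at an unadjusted p under 0.05), with adjusted p = 0.279, 0.228, 0.284, 0.284, 0.278 and 0.209 for Klf4 (0.91), Klf5 (0.70), Grhl1 (0.97), Cebpa (0.72), Maf (-1.19) and Slc2a1 (-1.28). A 2-fold limit left 796 rows, 1 of the 9 genes (Maf), 1 other regulator, 1 KLF, 3 basal and 0 keratinocyte genes, since Klf4 (0.91), Klf5 (0.70), Grhl1 (0.97) and Cebpa (0.72) lay below it.

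Deviations of arrays with the same replicate number correlated at -0.233 across rows, and the design does not pair them. With the replicate number as a block, 1849 rows and 5 of the 9 genes were called, with 3 other regulators, 1 KLF and 2 keratinocyte genes. A crossed replicate block, added after the data were seen, called 2039 rows, 4 of the 9 genes (Cebpa lost, 0.72, adjusted p = 0.0576) and 2 keratinocyte genes. The keratinocyte markers had 1 call as reported, 2 after quantile normalization and 2 without dim rows, where other regulators had 8. Leaving out 1 array gave 314 to 1214 rows, 0 to 1 of the 9 genes, 0 to 2 other regulators, 1 KLF gene, 1 to 4 basal, 7 to 15 spinous and granular and 0 to 1 keratinocyte genes. The differences then ran from 0.77 to 1.05 for Klf4, 0.65 to 0.75 for Klf5, 0.83 to 1.12 for Grhl1, 0.61 to 0.83 for Cebpa, -1.35 to -1.04 for Maf and -1.35 to -1.21 for Slc2a1. Among named genes that did not pass, signs reversed with 1 array left out for Grhl2 (-0.15 to 0.01), Csf1r (-0.09 to 0.01), Calm4 (-0.16 to 0.63), Cd3g (-0.32 to 0.03) and Plin1 (-0.09 to 0.03), and the cause was not tested. Signal over background limits Maf, Padi3, Dcn and Fabp4, whose dimmer group lay near or below the floor. Fabp4 was also below the floor on Glut1-deficient replicate 1.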
